A study of Mus musculus with 8 samples.

Results

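The genes described here encode chromatin remodelers of the SWI/SNF, ISWI and CHD families and the SRCAP and EP400 ATPases. They also encode subunits of the INO80 complex, some of them shared with other complexes, and further ATPases of the SNF2 superfamily. They were listed by name and by remodeler family, not by their measured values. All 49 were found by symbol among the 54446 genes of the count table, and all 49 were among the 17636 genes that passed a filter on low counts. By family, 22 belong to SWI/SNF, 7 to ISWI with its partner subunits, 9 to CHD and 6 to the INO80, SRCAP and EP400 type, and 5 are other SNF2 ATPases.

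Poly(A)-selected RNA of mouse medial prefrontal cortex was sequenced in 8 libraries, of which 4 carry the label Ino80e overexpression and 4 the label wild type. Ino80e encodes a subunit of the INO80 remodeling complex, and its human counterpart lies in a schizophrenia risk locus. Per the design text, adeno-associated virus carrying the risk gene's manipulation was delivered into this brain region by stereotaxic surgery. The labels used here state neither the strain, sex and age of the mice nor the promoter of the virus, the cells it entered or any control virus in the wild-type group. Nothing in the labels ties a library to a mouse of its own, so the p-values reflect the spread of these libraries only, which can be technical. The comparison asks whether transcripts of the other remodelers differ between the groups.

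Ino80e (ENSMUSG00000030689, GRCm38 chr7:126850960-126862377, minus strand) was measured at 74.1, 23.4, 23.3 and 45.04 CPM (reads of the gene scaled by library size) in overexpression libraries 1 to 4. In wild-type libraries 1 to 4 it was measured at 22.3, 19.5, 25.5 and 20.7 CPM. Overexpression libraries 1 and 4 lay above every wild-type library, and overexpression libraries 2 and 3 lay inside the wild-type range. The log2 fold change, overexpression label minus wild type, was 0.91 (SE 0.42), with an adjusted p of 0.513 by edgeR and a p of 0.114 by an exact two-sided permutation test over 70 arrangements, where the smallest possible p is 0.0286. Against their label, overexpression libraries 2 and 3 thus held no raised level of the targeted gene. Many of the results below, but not all, are given with and without them. Without libraries 2 and 3 the log2 fold change of Ino80e was 1.43 (SE 0.21) and the adjusted p by edgeR was 0.348. These libraries were set aside for their Ino80e level, so the larger value and smaller SE follow from that choice. They are no separate evidence of overexpression. Exons of Doc2a and Hirip3 on the opposite strand overlap 16.4% of its exon bases.

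Chromatin remodelers use the energy of ATP to slide, eject, space or exchange nucleosomes, and each works as an ATPase motor with partner subunits that target it. SWI/SNF (BAF) complexes open chromatin and change subunits as neural progenitors become neurons, when Actl6a, Phf10 and Ss18 give way to Actl6b, Dpf1 or Dpf3 and Ss18l1. ISWI complexes space nucleosomes, and CHD3, CHD4 and CHD5 are the motors of the NuRD deacetylase complex. INO80, SRCAP and EP400 are linked to the exchange of the histone variant H2A.Z.

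The promoters of the genes on which the comparison below turns differ in base composition. RefSeq promoter windows (GRCm38.p6, 250 bases before to 50 bases after each start) were found for 41 of the 49 genes, and Ss18, Chd7, Baz1a, Chd2, Chd3, Chd1, Arid2 and Smarce1 had none in the table used. The 250 bases upstream of the start are printed 5′ to 3′ on the gene's strand for both ISWI motors, for Atrx and for Smarcd3, since these are the members with the lowest p among those that were lower and the member with the lowest p among those that were higher. Capitals mark CpG dinucleotides.
Smarca5 (chr8:80739460-80739709, minus strand): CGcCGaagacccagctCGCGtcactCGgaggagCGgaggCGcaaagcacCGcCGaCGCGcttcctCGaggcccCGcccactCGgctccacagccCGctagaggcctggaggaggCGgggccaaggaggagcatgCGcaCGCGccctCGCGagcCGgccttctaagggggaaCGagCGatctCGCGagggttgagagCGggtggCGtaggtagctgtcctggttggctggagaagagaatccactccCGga
Smarca1 (chrX:47892614-47892863, minus strand): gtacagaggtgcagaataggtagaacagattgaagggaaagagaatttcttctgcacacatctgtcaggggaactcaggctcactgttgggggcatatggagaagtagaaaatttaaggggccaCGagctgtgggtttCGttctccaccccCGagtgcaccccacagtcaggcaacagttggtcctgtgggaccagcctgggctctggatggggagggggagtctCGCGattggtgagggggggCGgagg
Atrx (chrX:105929373-105929622, minus strand): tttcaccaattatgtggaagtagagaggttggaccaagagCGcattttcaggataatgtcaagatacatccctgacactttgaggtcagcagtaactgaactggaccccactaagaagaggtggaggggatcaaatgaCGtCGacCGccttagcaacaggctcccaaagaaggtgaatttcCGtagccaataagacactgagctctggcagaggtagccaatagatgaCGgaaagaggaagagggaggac
Smarcd3 (chr5:24602003-24602252, minus strand): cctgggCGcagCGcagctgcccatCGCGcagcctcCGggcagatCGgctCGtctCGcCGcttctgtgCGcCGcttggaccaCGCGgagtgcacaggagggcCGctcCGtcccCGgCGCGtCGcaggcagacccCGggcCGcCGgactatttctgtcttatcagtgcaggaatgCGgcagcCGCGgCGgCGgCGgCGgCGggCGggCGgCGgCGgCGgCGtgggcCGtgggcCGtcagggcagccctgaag
The Smarca5 stretch is 69.2% GC with 29 CpG dinucleotides, and that of its paralog Smarca1 is 56.4% GC with 6. The Atrx stretch is 48.4% GC with 6 CpG dinucleotides, and the Smarcd3 stretch is 76.0% GC with 38. The RefSeq start used for Smarcd3 lies inside the GENCODE gene. Over all windows of the 49 genes the median was 65.7% GC and 27 CpG dinucleotides, against 52.7% and 7 over all windows in the table. The transcripts of Smarca5 and Smarca1, in contrast to these stretches, have close GC contents of 41.0% and 41.2%.

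YY1 is a zinc finger protein that is also a subunit of the INO80 complex, so its motif AANATGGCG was searched on both strands. It was found in 5 of 47 windows of these genes (10.6%) and in 782 of all 32851 windows (2.38%). The matches of 4 of these genes are printed with flanking bases on the gene's strand, the matched letters in capitals.
Bptf (chr11:107132104-107132132, minus strand): gggaagaaacAAGATGGCGgctgcaggcg
Dpf3 (chr12:83487693-83487721, minus strand): acattgtagcAAAATGGCGactgtcattc
Smarcd1 (chr15:99702309-99702336, plus strand): cggctccgggAAGATGGCGgcccgggcg
Atrx (chrX:105929323-105929349, minus strand): tcggcccaacAAAATGGCGtcggcata
These 4 matches begin 26 to 34 bases after the start. The log2 fold changes of the 4 genes were -0.04 for Bptf, -0.04 for Dpf3, 0.10 for Smarcd1 and -0.17 for Atrx, so they lay on both sides of 0. The E2F motifs TTTGGCGC and TTTCCCGC were found in 4 windows (8.51%, against 1.56% of all windows), those of Arid1a, Brd7, Hells and Smarcd1. The ETS motif CCGGAAG was found in 6 windows (12.8%, against 8.86%), and the palindromic NRF1 motif in the Ercc6 window alone (2.13%, against 0.971%). These matches describe letters in the windows, and no binding was measured. Each of these motifs holds a CpG, and the windows of these genes are richer in CpG than all windows (median 27 against 7). No background of like base composition was used, so the higher shares cannot be ascribed to remodeler genes as such.

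Levels were compared between genes per length, as counts per kilobase of exon scaled to the same total in each library (TPM), over all 8 libraries. The length is that of all annotated exons of a gene merged, which can exceed that of the transcripts present, so orders and shares per length depend on it. The levels spanned from 481 ± 24.3 TPM (SD, n = 8 libraries) for Chd3 to 0.996 ± 0.151 TPM for Hells. Of the 49 genes, 37 lay above the median of all tested genes, which was 12.3 TPM. In this order 39 of the 48 neighbouring genes had library ranges that overlapped, so the order holds between distant ranks and not between most neighbours. The 49 genes took between 0.520% and 0.547% of all counts in a library.

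The CHD family held the most abundant member. Chd3, a NuRD motor, was followed by Chd5, the NuRD motor known from neurons, at 215 ± 7.73 TPM and by Chd4, the general NuRD motor, at 135 ± 7.33 TPM. The ranges of these genes did not overlap: 455 to 533 TPM for Chd3, 201 to 226 TPM for Chd5 and 124 to 145 TPM for Chd4. The remaining CHD genes were lower, from 24.6 ± 1.54 TPM for Chd8, a gene linked to autism, down to 5.19 ± 0.806 TPM for Chd7, the gene mutated in CHARGE syndrome.

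In SWI/SNF the scaffold gene Smarcc2 was the highest, at 312 ± 5.85 TPM, and its paralog Smarcc1 was at 45.04 ± 2.62 TPM. Smarcd1, an accessory core subunit, was at 133 ± 9.69 TPM. The alternative motors Smarca4 (BRG1) and Smarca2 (BRM) were at 128 ± 5.96 and 112 ± 3.56 TPM, with ranges of 118 to 138 and 105 to 117 TPM. Dpf3, a histone reader subunit, was the lowest of this family at 3.10 ± 0.482 TPM.

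Among ISWI genes Baz1b, which encodes the WSTF partner subunit, was the highest at 43.2 ± 2.45 TPM and Baz1a, which encodes the ACF1 partner, the lowest at 1.45 ± 0.224 TPM. The motors Smarca5 (SNF2H) and Smarca1 (SNF2L) were at 34.6 ± 3.29 and 19.0 ± 1.51 TPM. Ruvbl1, an AAA+ ATPase of INO80, SRCAP and TIP60 complexes, was the highest of its family at 61.0 ± 3.61 TPM. Srcap was measured at 1.18 ± 0.147 TPM, but exons of Gm42715 on the same strand overlap 61.7% of its exon bases, so reads shared by both may be missing from this level. Of the other SNF2 ATPases, the annealing helicase gene Smarcal1 had the highest mean over the 8 libraries, 40.9 ± 1.65 TPM. In wild type alone its mean was 40.3 TPM and that of Atrx 40.5 TPM, so these neighbours were not ordered there. Hells, which encodes the LSH remodeler of dividing cells, was the lowest, with 80 to 98 counts in a library.

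**Figure D1:**
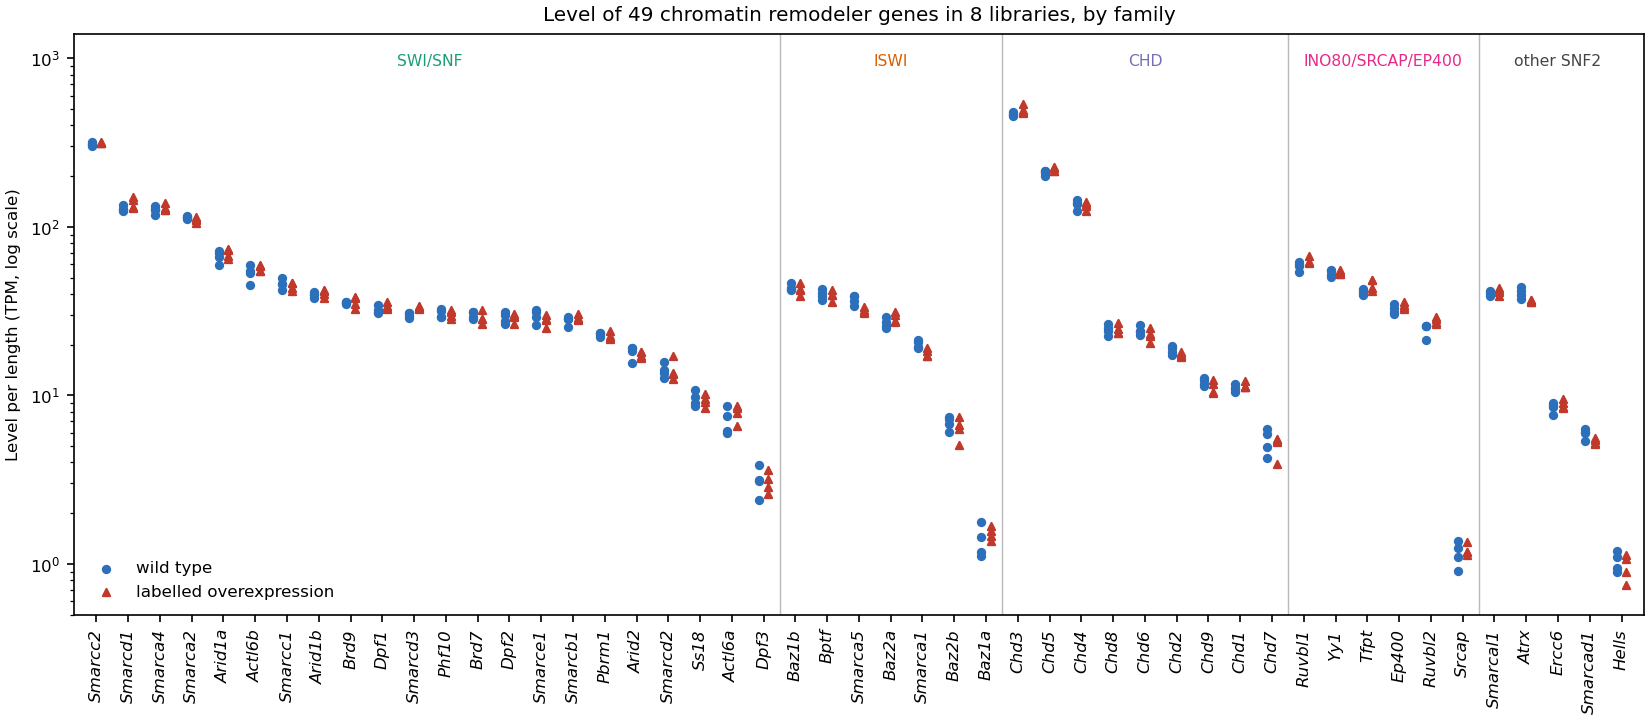
Level per length of each of the 49 remodeler genes, in TPM on a log axis, with a point for each of 8 libraries (circles, wild type; triangles, labelled overexpression), ordered within family. Chd3 lies highest and Hells lowest, at 481 and 0.996 TPM over all 8 libraries.

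The levels of the 49 genes were close in both groups. None passed an adjusted p of 0.05 by edgeR's quasi-likelihood test, where 6 of all 17636 genes did (0.034%), and none passed by DESeq2 (0.159% of all genes) or limma-voom (0.0113%). At an unadjusted p under 0.05, 4 were lower (Smarca5, Atrx, Smarca1 and Smarcad1) and 1 was higher (Smarcd3). These are 8.16% and 2.04% of the 49 genes, against 5.43% lower and 5.24% higher among all tested genes. DESeq2 also gave 4 lower and 1 higher, against 5.78% and 5.59% of all genes, and limma-voom gave 3 lower and 1 higher, against 5.22% and 5.26%. Without overexpression libraries 2 and 3, edgeR gave 3 lower and 0 higher, against 3.44% and 3.64% of all genes, and none passed the adjusted threshold (0.0054%). Of all tested genes, 10.7% had an unadjusted p under 0.05 in either direction. The 4 lower genes had transcripts of 40.3% to 41.2% GC and Smarcd3 of 59.6%, and the fold changes of all tested genes rose with GC content (Spearman's rho 0.418). Of the 3953 tested genes with transcripts under 45% GC, 15.9% were lower and 0.658% higher at an unadjusted p under 0.05, and of the 4063 with 55% or more, 0.369% were lower and 14.9% higher. Among the members 4 of the 10 under 45% GC were lower, and 1 of the 10 with 55% or more was higher. The log2 fold changes ran from -0.23 to 0.16, with 22 above 0 and 27 below. Their median was -0.012, against 0.0016 over all tested genes, of which 50.5% lay above 0.

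The standard errors bound what could be seen. Their median was 0.059 on the log2 scale, and 42 of the 49 were under 0.10. The 95% interval of the fold change lay within -0.25 and 0.25 for 35 genes and within -0.5 and 0.5 for 47. Baz1a and Hells, measured with few counts, had the wider intervals, from -0.31 to 0.56 and from -0.64 to 0.37.

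**Figure D2:**
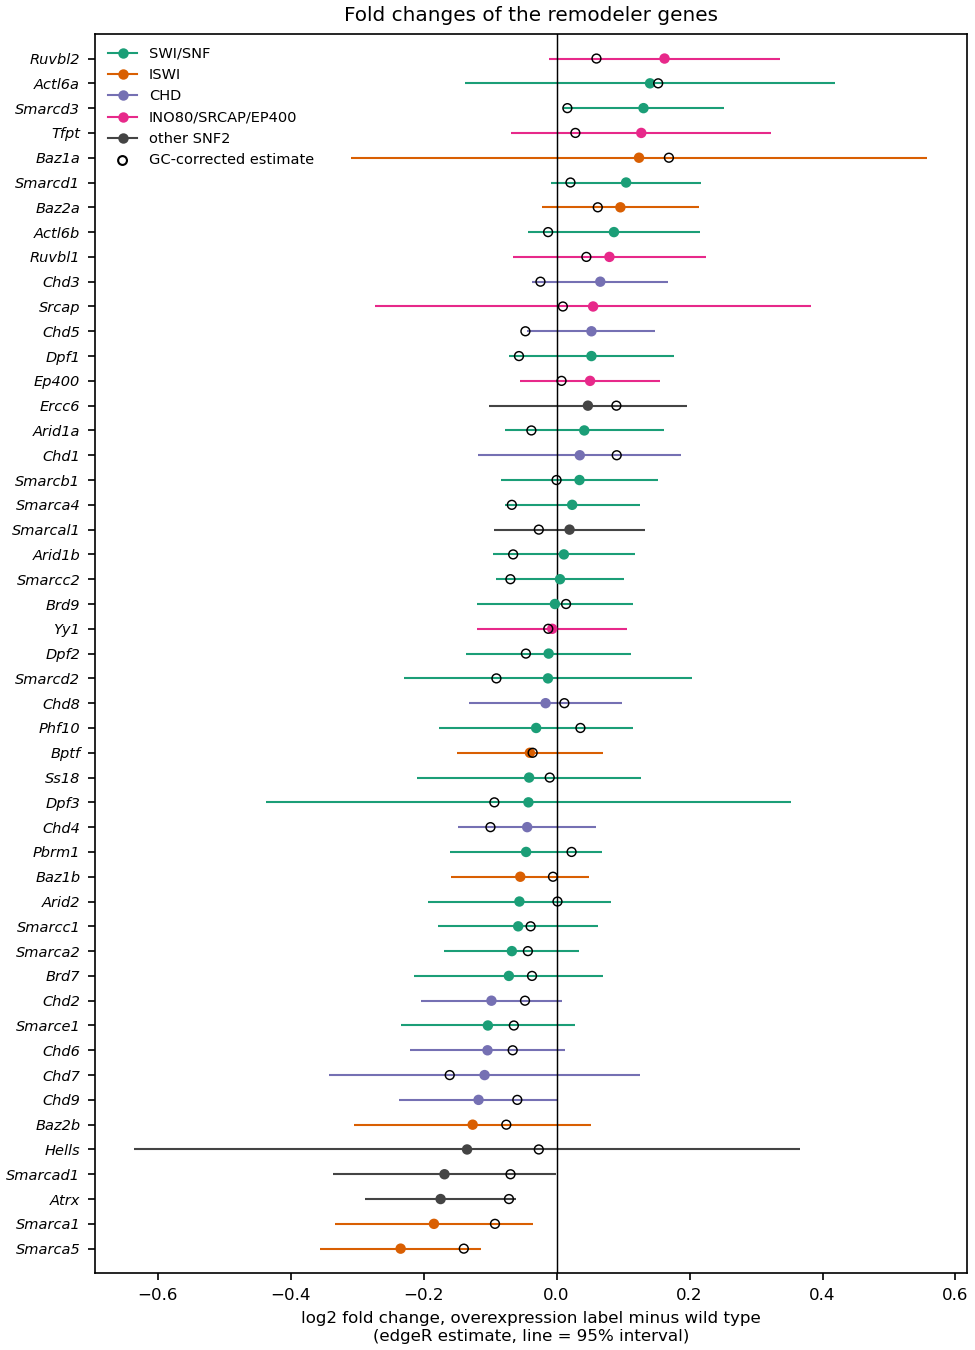
Log2 fold change of each of the 49 genes (overexpression label minus wild type, 4 libraries each) by edgeR, with its 95% interval, coloured by family and sorted. Open circles give the estimate after correction for transcript GC content, and the filled points run from -0.23 for Smarca5 to 0.16 for Ruvbl2.

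Smarca5 is the ISWI motor of the ACF, CHRAC, WICH and RSF complexes (ENSMUSG00000031715, chr8:80698507-80739497, minus strand). It was measured at 61.7, 63.9, 59.4 and 60.0 CPM in overexpression libraries 1 to 4 and at 75.5, 78.4, 66.3 and 68.0 CPM in wild-type libraries 1 to 4. All 4 overexpression libraries lay below all 4 wild-type libraries. The means were 61.2 ± 2.02 and 72.0 ± 5.81 CPM (SD, n = 4). The log2 fold change was -0.23 (SE 0.059, 95% interval -0.36 to -0.11), with an unadjusted p of 5.58e-04 and an adjusted p of 0.243 by edgeR. Overexpression libraries 2 and 3, which held wild-type levels of Ino80e, were as low in Smarca5 as libraries 1 and 4. Without them the log2 fold change was -0.24 (SE 0.074, adjusted p 0.577). The direction held in all 20 alternatives, each with an unadjusted p under 0.05. The adjusted p ran from 0.0432 to 1.0 over them, and was under 0.05 in the fit without a low-count filter only, where 0.277% of all genes passed.

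Smarca1 encodes the other ISWI motor, the SNF2L protein of the NURF complex (ENSMUSG00000031099, chrX:47809368-47892974, minus strand). Its levels were 26.8, 28.6, 27.6 and 25.0 CPM in the overexpression libraries and 28.9, 33.5, 29.9 and 30.5 CPM in the wild-type libraries. The groups did not overlap, but overexpression library 2 and wild-type library 1 were close. Its log2 fold change was -0.18 (SE 0.072) with an unadjusted p of 0.0178 and an adjusted p of 0.385 by edgeR. Without overexpression libraries 2 and 3 it was -0.25 (adjusted p 0.597). Both ISWI motors were thus lower with p under 0.05 before adjustment and neither after it.

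None of the 5 ISWI partner genes had an unadjusted p under 0.05, and their median log2 fold change was -0.04. Bptf, the NURF subunit that binds methylated histone H3, was at 136 ± 5.73 and 139 ± 7.96 CPM in the overexpression and wild-type groups (log2 fold change -0.04, SE 0.053). Baz1b was at 143 ± 6.66 and 149 ± 4.21 CPM (-0.05, SE 0.050). Baz2a, the nucleolar partner of Smarca5, was at 76.6 ± 3.93 and 71.6 ± 4.68 CPM (0.10, SE 0.057), and Baz2b at 27.6 ± 3.61 and 30.1 ± 2.18 CPM (-0.13, SE 0.086). Baz1a was at 2.68 ± 0.252 and 2.46 ± 0.567 CPM (0.12, SE 0.21). The libraries of both groups overlapped for each of these genes.

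Atrx is an SNF2 motor that deposits histone H3.3 with its partner Daxx and is mutated in an X-linked intellectual disability (ENSMUSG00000031229, chrX:105797615-105929403, minus strand). It was measured at 199, 195, 191 and 192 CPM in the overexpression libraries and at 212, 247, 203 and 216 CPM in the wild-type libraries. The groups did not overlap, and wild-type library 2 lay well above the other libraries of its group. Its log2 fold change was -0.17 (SE 0.055) with an unadjusted p of 0.00408 and an adjusted p of 0.315 by edgeR. Without overexpression libraries 2 and 3 it was -0.17 (adjusted p 0.676).

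Smarcad1, a motor known for keeping heterochromatin through replication, was measured at 18.3, 16.7, 17.2 and 17.9 CPM in the overexpression libraries. In the wild-type libraries it was at 19.8, 20.7, 18.02 and 20.2 CPM. Overexpression library 1 lay above wild-type library 3, so the groups overlapped. The log2 fold change was -0.17 (SE 0.081) with an unadjusted p of 0.0495 and an adjusted p of 0.467 by edgeR, and the unadjusted p was under 0.05 in 5 of 20 alternatives. It was -0.12 without overexpression libraries 2 and 3 (unadjusted p 0.249, adjusted p 0.799 by edgeR). The remaining SNF2 ATPases had p above 0.05. Hells was at 1.69 ± 0.280 and 1.86 ± 0.274 CPM (log2 fold change -0.13, SE 0.24), Ercc6, a motor of transcription-coupled repair, at 28.1 ± 0.994 and 27.2 ± 1.84 CPM (0.05, SE 0.072), and Smarcal1 at 58.4 ± 2.01 and 57.6 ± 2.96 CPM (0.02, SE 0.055).

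**Figure D3:**
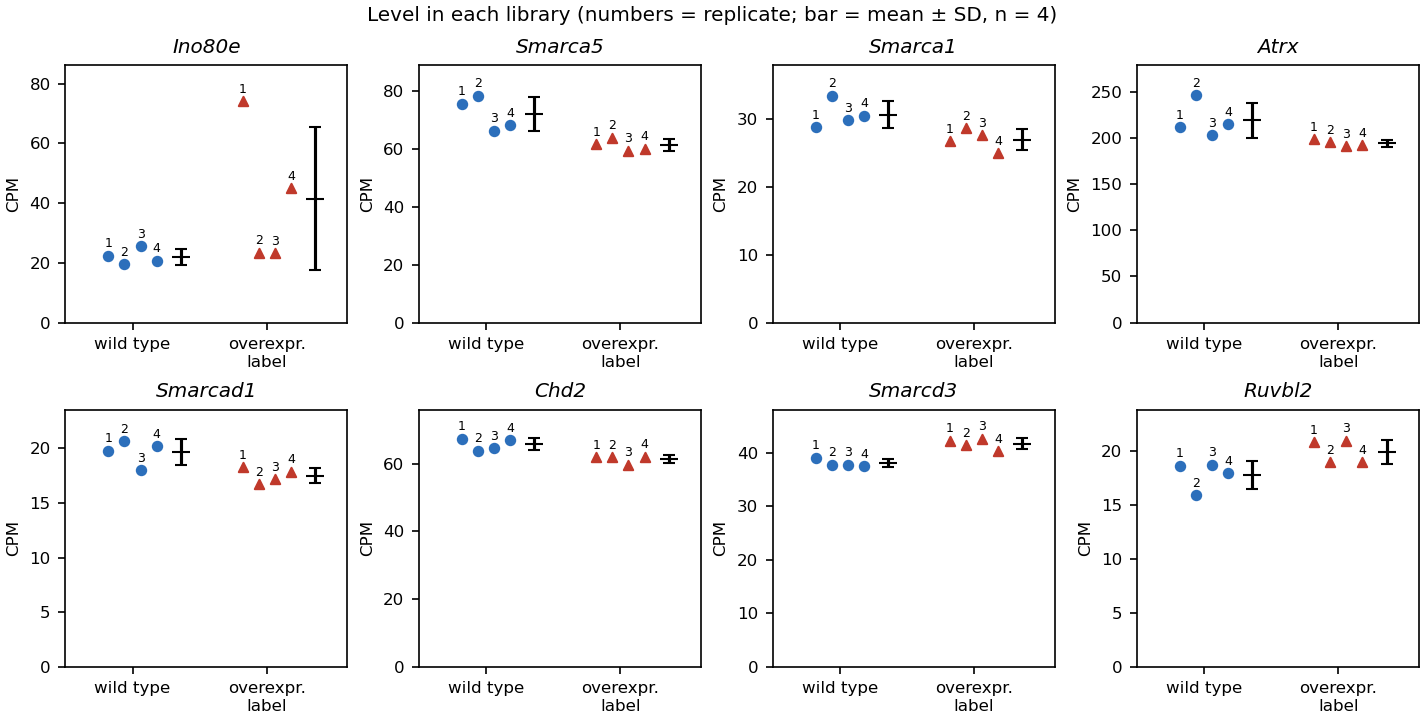
Level of Ino80e and of 7 remodeler genes in each library, in CPM on axes that start at 0, with the replicate number above each point (circles, wild type; triangles, labelled overexpression) and bars for the mean ± SD of 4 libraries. Ino80e stands above wild type in overexpression libraries 1 and 4, at 74.1 and 45.04 CPM, while the points of Smarca5, Smarca1, Atrx and Chd2 lie lower and those of Smarcd3 and Ruvbl2 higher in all 4 overexpression libraries.

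Smarcd3 encodes BAF60C, an accessory core subunit of SWI/SNF with roles in heart, muscle and neurons (ENSMUSG00000028949, chr5:24590818-24624411, minus strand). It was measured at 42.3, 41.4, 42.6 and 40.3 CPM in the overexpression libraries and at 39.1, 37.8, 37.8 and 37.5 CPM in the wild-type libraries. The overexpression libraries lay above all wild-type libraries. The log2 fold change was 0.13 (SE 0.059) with an unadjusted p of 0.0356 and an adjusted p of 0.433 by edgeR, and the unadjusted p was under 0.05 in 10 of 20 alternatives. Without overexpression libraries 2 and 3 it was 0.12 (adjusted p 0.738). Exons of Chpf2 on the opposite strand overlap 48.2% of the exon bases of Smarcd3, and no source used here states the strand setting of the counting, so this level is uncertain.

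The other SWI/SNF genes had unadjusted p-values above 0.05. The motors Smarca2 and Smarca4 were at 385 ± 17.1 and 206 ± 6.03 CPM in the overexpression group and at 404 ± 19.5 and 203 ± 9.21 CPM in wild type, with log2 fold changes of -0.07 (SE 0.049) and 0.02 (SE 0.049). Smarcb1, the tumour suppressor of the core, gave 0.03 (SE 0.057), Smarce1 -0.10 (SE 0.063), Smarcc1 -0.06 (SE 0.058), Smarcc2 0.0052 (SE 0.047), Smarcd1 0.10 (SE 0.054) and Smarcd2 -0.01 (SE 0.11). The DNA-binding BAF subunits Arid1a and Arid1b, which are mutated in Coffin-Siris syndrome, gave 0.04 (SE 0.058) and 0.01 (SE 0.052). Over the family 10 genes lay above 0 and 12 below, with a median of -0.0072. All 4 subunits of the PBAF form lay below 0 (Arid2, Pbrm1, Brd7 and Phf10, with a median of -0.05 and p above 0.05 each), but 3 of the 4 lay above 0 after the GC correction. Without overexpression libraries 2 and 3, Phf10 lay above 0, at 0.036, and the median of the 4 was -0.010. Brd9, which marks the non-canonical form, was at 61.4 ± 4.08 and 61.6 ± 1.89 CPM.

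In the CHD family 3 genes lay above 0 and 6 below, with a median of -0.04, and none had an unadjusted p under 0.05. Chd2, a gene of early-onset epilepsy, was measured at 62.0, 61.9, 59.7 and 62.1 CPM in the overexpression libraries and at 67.4, 63.9, 64.6 and 67.04 CPM in the wild-type libraries. Its groups did not overlap, and its log2 fold change was -0.10 (SE 0.051, adjusted p 0.501 by edgeR). It was -0.083 without overexpression libraries 2 and 3 (adjusted p 0.786 by edgeR). Exons of 1810026B05Rik on the same strand overlap 18.4% of its exon bases. The NuRD motors gave log2 fold changes of 0.07 (SE 0.049) for Chd3, -0.04 (SE 0.050) for Chd4 and 0.05 (SE 0.047) for Chd5. All 4 genes of the third subfamily lay below 0, namely Chd6 (-0.10, SE 0.056), Chd7 (-0.11, SE 0.11), Chd8 (-0.02, SE 0.056) and Chd9 (-0.12, SE 0.058), with intervals that all included 0, but Chd8 lay above 0 after the GC correction, at 0.012, and without overexpression libraries 2 and 3, at 0.050. Chd7 was at -0.24 (SE 0.14) without overexpression libraries 2 and 3. With the GC correction added it was at -0.30 (unadjusted p 0.0208, adjusted p 0.999 by edgeR). Chd1, a motor that binds methylated histone H3, was at 24.6 ± 0.638 and 24.0 ± 1.53 CPM.

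The genes of the INO80, SRCAP and EP400 type are the nearest to Ino80e in complex membership. Ruvbl2, the AAA+ partner of Ruvbl1, was measured at 20.8, 18.9, 20.9 and 19.0 CPM in the overexpression libraries and at 18.6, 15.9, 18.7 and 17.9 CPM in the wild-type libraries. The groups did not overlap, though overexpression library 2 and wild-type library 3 differed by little. For Ruvbl2 the log2 fold change was 0.16 (SE 0.084), with an unadjusted p of 0.0647 and an adjusted p of 0.498 by edgeR. It was 0.16 without overexpression libraries 2 and 3 (SE 0.11, adjusted p 0.756 by edgeR). Overexpression libraries 1 and 3 were the highest, and only the first of them held raised Ino80e. Exons of Gys1 and Lhb on the opposite strand overlap 15.4% of the exon bases of Ruvbl2.

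Ruvbl1 was at 29.5 ± 1.44 and 27.9 ± 1.52 CPM (log2 fold change 0.08, SE 0.071), and Tfpt, an INO80 subunit, at 13.4 ± 0.879 and 12.3 ± 0.613 CPM (0.13, SE 0.095). Yy1 was at 84.6 ± 4.13 and 85.0 ± 4.57 CPM (-0.0065, SE 0.055). The motor genes Ep400 and Srcap gave 0.05 (SE 0.051) and 0.055 (SE 0.16). In all, 5 of the 6 lay above 0 with a median of 0.067. It was 0.098 without overexpression libraries 2 and 3 and 0.019 after correction for GC content. Fits without those libraries rest on overexpression libraries 1 and 4 alone, which differed in cell type markers. Library 1 was the lowest and library 4 the highest of the overexpression group in summed striatal markers (101 and 229 CPM). The same held for summed oligodendrocyte markers (4202 and 6100 CPM). None of the 6 had an unadjusted p under 0.05.

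Counted as groups that did not overlap in CPM, 2 of the 49 genes were higher (Smarcd3 and Ruvbl2) and 4 lower (Smarca5, Smarca1, Atrx and Chd2) in all 4 overexpression libraries. These are 4.08% and 8.16% of the genes, against 2.82% higher and 3.02% lower among all tested genes. All 4 genes that were lower with an unadjusted p under 0.05 encode ATPases of the SNF2 superfamily, of which there are 20 among the 49. All 4 have transcripts under 45% GC, where 15.9% of all tested genes were lower, and Smarca5 was the only one of them with an unadjusted p under 0.05 after the GC correction. The 20 ATPases of the SNF2 superfamily had a median log2 fold change of -0.056, with 8 above 0 and 12 below. The 29 other genes, which include the AAA+ ATPases Ruvbl1 and Ruvbl2, had a median of -0.0025, with 14 above 0 and 15 below. After the GC correction these medians were -0.047 and -0.010.

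The fold changes followed the base composition of the transcripts. Across the 49 genes, which share the same 8 libraries and are not independent, the log2 fold change and the transcript GC content had a Pearson's r of 0.731 and a Spearman's rho of 0.706, and across 17627 tested genes these were 0.242 and 0.418. The slope was 0.13 log2 units for each 10 points of GC among the 49 genes and 0.11 among all tested genes. Without overexpression libraries 2 and 3, Pearson's r was 0.602 across the 49 genes and 0.183 across all tested genes. Of the 10 members under 45% GC, 9 lay below 0, with a median of -0.13, and of all 3953 tested genes in that range 3063 lay below 0, with a median of -0.096. Of the 10 members at 55% GC or more, 10 lay above 0, with a median of 0.076, and of all 4063 tested genes in that range 3255 did, with a median of 0.094.

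The trend was seen library by library. The median deviation of the high-GC members (55% or more) minus that of the low-GC members (under 45%), each from the gene's mean over the 8 libraries on the log2 scale, was 0.079, 0.051, 0.16 and 0.067 in overexpression libraries 1 to 4. It was -0.12, -0.16, 0.016 and -0.13 in wild-type libraries 1 to 4. All overexpression libraries were above all wild-type libraries, and wild-type library 3 was the nearest to them. Overexpression libraries 2 and 3, with wild-type levels of Ino80e, gave the lowest and the highest value of their group. The cause of the trend was not tested.

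**Figure D4:**
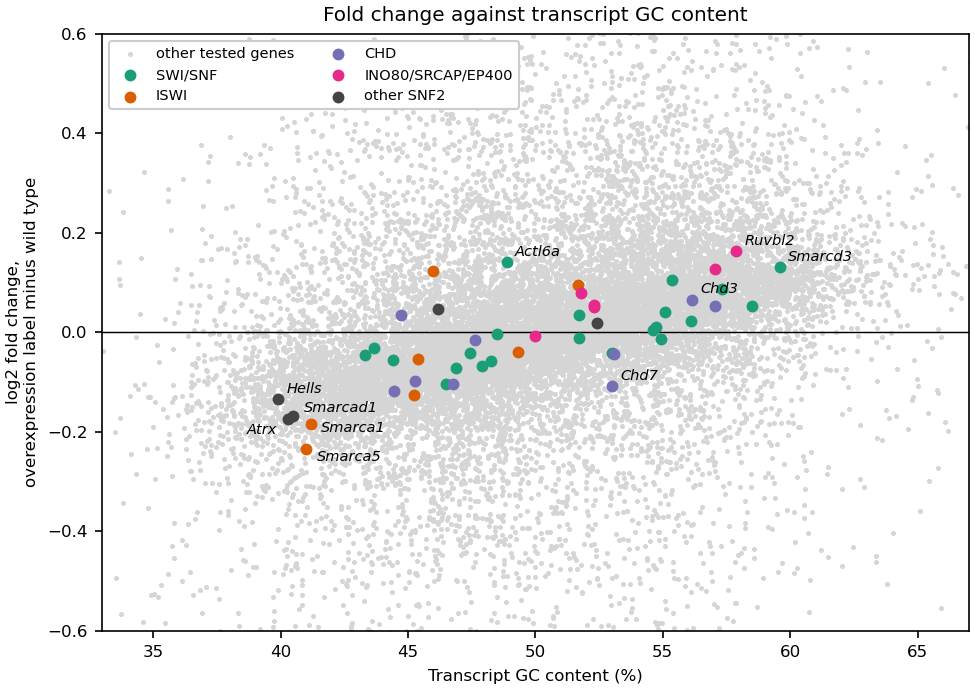
Log2 fold change (overexpression label minus wild type) against transcript GC content in percent, with the 49 remodeler genes coloured by family over the other tested genes in grey, of which 936 of 17578 lie outside the axes. The coloured points climb from Smarca5, Smarca1, Atrx and Smarcad1 at 40.3% to 41.2% GC to Smarcd3 at 59.6% GC, with r of 0.731 over the 49 genes.

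After a correction for GC content, r across the 49 genes was 0.015. Smarca5 then had a log2 fold change of -0.14 (SE 0.052, unadjusted p 0.013, adjusted p 0.998 by edgeR), and its groups still did not overlap, against 1.84% of all genes with groups apart in the lower direction and 1.14% in the higher. None of the 49 passed the adjusted threshold, against 0.0284% of all genes. Smarca5 was the only one of the 49 genes with an unadjusted p under 0.05, against 2.6% lower and 2.0% higher among all tested genes in that fit. Atrx moved to -0.072 (unadjusted p 0.183), Smarca1 to -0.093 (0.206), Smarcad1 to -0.069 (0.385) and Smarcd3 to 0.016 (0.788), all by edgeR. The sign changed in 14 of the 49 genes, and the change became smaller in 32.

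Several remodelers exchange paralogs, and 11 pairs of neuronal against general or of alternative subunits were compared as the log2 ratio of their CPM within a library. Shares per length are given first, as the first gene's part of the summed TPM of both. The neuronal actin-related subunit Actl6b made up 87.8 ± 1.21% of its sum with Actl6a in the overexpression libraries and 88.2 ± 1.93% in wild type (SD, n = 4). Ss18l1, the neuronal counterpart of Ss18 and not itself among the 49 genes, made up 85.4 ± 1.04% and 84.6 ± 1.06%. Dpf1, the neuronal reader, made up 52.6 ± 1.27% and 51.2 ± 1.90% of its sum with Phf10. Dpf3 made up 9.60 ± 1.497% and 9.72 ± 1.11% of its sum with Dpf2. The neuronal forms of the actin-related and Ss18 subunits were thus in excess in every library, Dpf1 and Phf10 stood near parity, and Dpf3 was the minor form.

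Per length the alternative SWI/SNF motors were near parity, with Smarca2 at 45.9 ± 1.63% and 47.4 ± 1.18% of its sum with Smarca4. This share rests on the merged exon lengths, 14269 bases for Smarca2 and 6475 for Smarca4. By CPM Smarca2 was higher in every library, with a log2 ratio to Smarca4 of 0.802 to 1.06. Smarcc2 made up 87.6 ± 0.552% and 87.1 ± 0.898% of its sum with Smarcc1, and Arid1b 36.7 ± 0.585% and 37.3 ± 1.29% of its sum with Arid1a. Among the Smarcd subunits, Smarcd1 took 74.6 ± 0.669% and 74.4 ± 0.916% of the sum of its family, Smarcd3 17.8 ± 1.04% and 17.4 ± 0.846%, and Smarcd2 7.56 ± 0.647% and 8.18 ± 0.527%. Smarca1 made up 35.9 ± 1.10% and 35.2 ± 1.73% of the ISWI motors, and the difference in its log2 ratio to Smarca5 was 0.048 (exact permutation p 0.543). Of the NuRD motors, Chd3 took 58.3 ± 1.88% and 57.5 ± 0.719%, Chd5 25.9 ± 1.08% and 25.8 ± 0.329%, and Chd4 15.8 ± 0.880% and 16.7 ± 0.762%.

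No ratio differed between the groups past the threshold by the exact two-sided permutation test over 70 arrangements, with 0 of 11 at an unadjusted p under 0.05 and p-values adjusted over the 11 pairs of 0.629 to 0.886. The lowest p was that of Chd5 to Chd4, the neuronal against the general NuRD motor. Its log2 ratio was 1.04, 0.962, 0.955 and 0.950 in overexpression libraries 1 to 4 and 0.952, 0.904, 0.890 and 0.778 in wild-type libraries 1 to 4. The groups overlapped only through overexpression library 4 and wild-type library 1, the difference was 0.10 (exact permutation p 0.0571, adjusted 0.629), and it was 0.05 after the GC correction. The neuronal members as a group (Actl6b, Dpf1, Dpf3 and Chd5) had a median log2 fold change of 0.05, with 3 of 4 above 0, and their general counterparts (Actl6a, Phf10, Dpf2, Ss18 and Chd4) of -0.03, with 1 of 5 above 0. After the GC correction these medians were -0.05 and -0.01, so the order of the groups did not hold. The single values were 0.09 (SE 0.062) for Actl6b, 0.14 (SE 0.13) for Actl6a, 0.05 (SE 0.060) for Dpf1, -0.03 (SE 0.071) for Phf10, -0.04 (SE 0.19) for Dpf3, -0.01 (SE 0.060) for Dpf2 and -0.04 (SE 0.081) for Ss18.

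**Figure D5:**
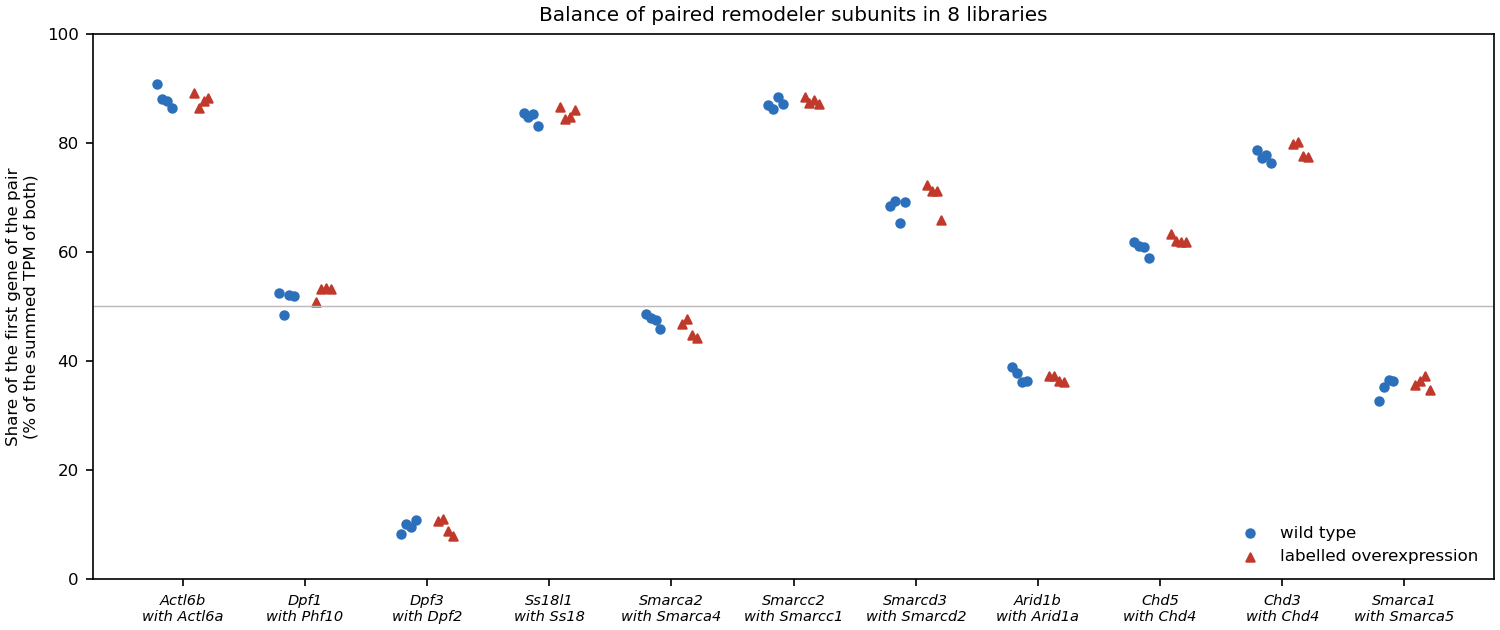
Share of the first gene in the summed TPM of each of 11 pairs of paralogous or alternative subunits, in percent, with a point for each of 8 libraries (circles, wild type; triangles, labelled overexpression). The line marks equal shares. Actl6b, Ss18l1 and Smarcc2 lie near the top in every library and Dpf3 near the bottom, and the groups overlap in all 11 pairs.

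The partner subunits of the same complexes that are not among the 49 genes were listed too, 51 in all, and all 51 passed the low-count filter. None passed an adjusted p of 0.05 by edgeR, DESeq2 or limma-voom. At an unadjusted p under 0.05 edgeR gave 2 lower and 0 higher, DESeq2 4 lower and 2 higher, and limma-voom 2 lower and 2 higher. The 2 lower by edgeR are 3.92% of the 51, against 5.43% lower and 5.24% higher among all tested genes. DESeq2 gave 7.84% lower and 3.92% higher, against 5.78% and 5.59% of all genes. With limma-voom it was 3.92% in each direction, against 5.22% lower and 5.26% higher. By edgeR 28 lay above 0 and 23 below, with a median of 0.016. The 2 lower genes were Hdac2, a NuRD deacetylase, and Rsf1, the partner of Smarca5 in the RSF complex. Hdac2 was at 56.7 ± 4.06 and 65.0 ± 3.36 CPM (log2 fold change -0.20, SE 0.060, adjusted p 0.315) and Rsf1 at 56.8 ± 2.83 and 64.1 ± 1.99 CPM (-0.18, SE 0.054, adjusted p 0.315). Without overexpression libraries 2 and 3 they gave -0.19 and -0.12, with unadjusted p of 0.0145 and 0.0749 by edgeR. Both have transcripts of low GC content, 42.1% and 42.4%. After the GC correction they gave -0.12 and -0.099, with unadjusted p of 0.0419 and 0.0698 by edgeR. Hdac2 was then the only partner with an unadjusted p under 0.05, 1.96% of the 51, against 2.6% lower among all tested genes.

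Of the other partners with the lowest p in each complex, Cecr2, an ISWI partner, was at 4.57 ± 0.275 and 5.58 ± 0.499 CPM (log2 fold change -0.29, SE 0.14). Its groups did not overlap in CPM, nor after the GC correction, where it gave -0.25. In CPM, 4 of the 51 partners had groups apart in the lower direction and 0 in the higher. These are 7.84% and 0%, against 3.02% and 2.82% of all tested genes. Of these 4, 3 were ISWI partners. Mbd3, the methyl-binding domain subunit of NuRD, gave 0.11 (SE 0.052) and -0.013 after the GC correction, and the SWI/SNF subunits Actb and Bicra gave 0.08 (SE 0.043) and 0.16 (SE 0.091). Vps72, the H2A.Z chaperone of SRCAP, gave 0.16 (SE 0.081), and Morf4l1, a chromodomain subunit of TIP60, -0.09 (SE 0.050). Daxx, the partner of Atrx, gave 0.11 (SE 0.082), and Cdca7l -0.43 (SE 0.51). The further SNF2 genes Ercc6l2 and Hltf gave -0.14 (SE 0.097) and -0.12 (SE 0.084).

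Markers of the cell types that the tissue holds were measured beside these genes, and in bulk RNA fewer cells of a type and less RNA per cell cannot be told apart. Summed neuronal markers (8 genes) ran from 9334 to 10065 CPM in the overexpression libraries and from 9292 to 10456 CPM in wild type, and summed astrocyte markers (6 genes) from 1924 to 2228 and from 1903 to 2140 CPM. Oligodendrocyte markers (6 genes) ran from 4202 CPM, in overexpression library 1, to 6100 CPM, and from 5049 to 6069 CPM in wild type. Microglial markers (6 genes) ran from 292 to 357 CPM and from 276 to 314 CPM, with 3 of 6 higher at an unadjusted p under 0.05, against 5.24% of all tested genes, and 1 of 6 after the GC correction. Of these 6 markers 4 lay above 0 and 2 below. Among astrocyte markers 1 of 6 was higher at that p in both fits. Among neuronal markers 1 of 8 was higher and 1 lower, and among cycling and progenitor markers 1 of 6 was lower, with 0 after the GC correction in both lists. Endothelial markers (4 genes) ran from 187 to 213 and from 179 to 229 CPM, and oligodendrocyte precursor markers (3 genes) from 115 to 136 and from 118 to 141 CPM. Markers of cycling cells and progenitors (6 of 7 tested) ran from 51.0 to 63.9 and from 60.3 to 64.8 CPM, with 1 above 0 and 5 below. Striatal markers (5 genes) ran from 101 to 229 and from 106 to 199.7 CPM. All 5 striatal markers lay above 0, with a median log2 fold change of 0.31. This median was 0.22 after the GC correction and 0.17 without overexpression libraries 2 and 3. None of the 5 had an unadjusted p under 0.05 by edgeR. Their sum was lowest in overexpression library 1 and highest in overexpression library 4. Of 44 tested markers, none passed an adjusted p of 0.05 by edgeR, DESeq2 or limma-voom, and 7, 7 and 5 had an unadjusted p under 0.05. The 7 by edgeR are 15.9% of the markers, against 10.7% of all tested genes, and after the GC correction 2 of the 44 did, against 2.6% lower and 2.0% higher among all tested genes. No marker was at 0 in every library, and the part of cell composition in the values above was not tested.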

How the data were processed

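RNA from the medial prefrontal cortex was counted in 8 libraries, grouped by the sample titles. The authors deposited raw read counts for each gene and library, and the submitters' processing notes name Trimmomatic 0.39, STAR 2.7.10, featureCounts 2.0.3 and the mouse assembly GRCm38 (mm10). Libraries were made by a strand-specific dUTP method, per the labels' protocols, and no source used here states the strand setting or annotation release of the counting. Library totals ran from 44762378 to 60490153 counts, and no 2 libraries agreed within sampling noise (chi-square per degree of freedom of at least 9.07).

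Symbols, positions, exon lengths and transcript GC content were taken from the GENCODE M21 annotation, matched by Ensembl identifier for 54409 of the 54446 genes. Counts were filtered with filterByExpr, scaled by TMM and tested with edgeR 4.0.16 (robust quasi-likelihood F test, R 4.3.3) over all 17636 genes, with Benjamini-Hochberg adjustment and a threshold of 0.05. Log2 ratios of paired genes, from log2 CPM with a prior count of 2, were tested by an exact permutation test. The 20 alternatives were DESeq2 1.42.0, limma-voom (limma 3.58.1), RLE and upper-quartile scaling, no filter, a filter of 1 CPM in 4 libraries, a fit that is not robust, a block for the replicate number, a correction for transcript GC content (a spline with 5 degrees of freedom as offset) with and without the block, each library left out, and overexpression libraries 2 and 3 left out, also with the GC correction. Promoter windows came from RefSeq, and 1 motif match is not reported here.

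The members and lists, and the alternatives on GC content and on libraries 2 and 3, were chosen with earlier results of these data known. Named with values were Ino80e, members with an unadjusted p under 0.05 or groups that did not overlap, and paired subunits. So were the highest and lowest member per length in each family, the INO80 subunits among the members, and Hells. The 2 partners with the lowest p in each complex were named too. The remaining members are named to account for their groups.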

Additional observations from a re-analysis of the deposited data

Results flagged for a closer look

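In groups of 4 libraries, 5 of 122 groups held a library that stood apart from the other libraries of its group, where chance gives about 1 in 20. The gap to the nearest library, as a share of the group's range, was 0.911 for Chd2 in overexpression library 3, at 59.7 CPM against 61.9 to 62.1 CPM in the others. It was 0.928 for Chd4 in wild-type library 1, at 247 CPM against 279 to 281 CPM. For the log2 ratio of Dpf1 to Phf10 it was 0.891 in overexpression library 1, at 0.173 against 0.312 to 0.328, and 0.889 in wild-type library 2, at 0.036 against 0.241 to 0.267. For the log2 ratio of Chd5 to Chd4 it was 0.871 in overexpression library 1, at 1.04 against 0.950 to 0.962.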

How the results depend on the processing

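The count of genes called among all tested was 6, and it was 83 with no low-count filter, 28 by DESeq2, 2 by limma-voom, 2 with no robust estimation, 1 without overexpression libraries 2 and 3, and 3 with the GC correction without those libraries. Among the 49 members 0 were called, and 1 was called with no low-count filter (Smarca5, with 29946 genes tested), while every other alternative gave 0. The count of members higher at an unadjusted p under 0.05 was 1, and it was 0 with no low-count filter, with the GC correction, with the GC correction and block, and without libraries 2 and 3 with or without the GC correction. The count of members lower was 4, and it was 1 with the GC correction, 1 with the GC correction and block, and 2 with the GC correction without libraries 2 and 3 (Smarca5 and Chd7). With single libraries left out, the calls among all genes ran from 1 to 8, the members higher from 0 to 2 and the members lower from 3 to 5. Shares of all tested genes at an unadjusted p under 0.05 were not counted for fits with a block, no filter or single libraries left out. Nor were they counted for the GC correction without libraries 2 and 3. The member counts of these fits are therefore not set against a background. The median of SWI/SNF was -0.037 with the GC correction and -0.036 with the block added. That of the INO80, SRCAP and EP400 type was 0.019, 0.026 with the block, 0.098 without libraries 2 and 3 and 0.035 with both that omission and the GC correction. That of the other SNF2 ATPases was -0.027, -0.033, -0.055 and -0.046 under the same settings, and ran from -0.19 to -0.031 with single libraries left out, the highest without overexpression library 3. Of the 11 pairs, 0 had a p under 0.05 by the exact permutation test, and with single libraries left out 0 to 1 had: Smarcd3 to Smarcd2 without overexpression library 4 and Chd5 to Chd4 without wild-type library 1.

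Deviations of same-numbered libraries correlated at -0.051, -0.043, 0.015 and 0.027. Those of libraries with unlike numbers correlated at -0.111 to 0.103. The titles do not state what the replicate numbers mark, and these correlations cannot exclude a pairing. With the replicate block 1 gene was called over all genes, 0 members were called, 3 members were lower and 1 higher at an unadjusted p under 0.05. The share of all tested genes at that unadjusted p was not counted in the block fit, so these member counts have no background. No pair could pass under the block, where the smallest p the design allows is 0.125.

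Directions turned for these values, none of which was called in the main analysis. With the GC correction they were -0.013 for Actl6b, -0.038 for Arid1a, -0.065 for Arid1b, 0.0014 for Arid2, 0.014 for Brd9, -0.024 for Chd3, -0.047 for Chd5, 0.012 for Chd8, -0.057 for Dpf1, 0.023 for Pbrm1, 0.036 for Phf10, -0.067 for Smarca4, -0.027 for Smarcal1, -0.069 for Smarcc2, -0.090 for the ratio of Dpf1 to Phf10, 0.023 for the ratio of Smarca2 to Smarca4 and -0.033 for the ratio of Smarcc2 to Smarcc1. With the GC correction and block they were -0.010 for Actl6b, -0.036 for Arid1a, -0.065 for Arid1b, 0.0051 for Arid2, 0.013 for Brd9, -0.026 for Chd3, -0.044 for Chd5, 0.011 for Chd8, -0.054 for Dpf1, 0.022 for Pbrm1, 0.036 for Phf10, -0.065 for Smarca4, -0.025 for Smarcal1 and -0.068 for Smarcc2. Without overexpression libraries 2 and 3 they were 0.050 for Chd8, 0.036 for Phf10, -0.012 for Smarcal1, -0.0019 for Smarcc2, 0.047 for Smarcd2, 0.011 for Yy1, 0.059 for the ratio of Actl6b to Actl6a and -0.0047 for the ratio of Smarca1 to Smarca5. With the GC correction and without those libraries they were -0.022 for Actl6b, -0.027 for Arid1a, -0.055 for Arid1b, 0.056 for Arid2, -0.052 for Chd3, -0.044 for Chd5, 0.0010 for Chd6, 0.086 for Chd8, -0.030 for Dpf1, 0.026 for Hells, 0.048 for Pbrm1, 0.10 for Phf10, -0.043 for Smarca4, -0.063 for Smarcal1, -0.080 for Smarcc2 and 0.0074 for Yy1. With upper-quartile scaling they were 0.0044 for Brd9 and 0.000565 for Yy1. With single libraries left out, the range over the 8 fits was -0.012 to 0.079 for Arid1a, -0.012 to 0.040 for Arid1b, -0.036 to 0.026 for Brd9, -0.055 to 0.0070 for Chd8, -0.050 to 0.013 for Dpf2, -0.15 to 0.047 for Dpf3, -0.076 to 0.017 for Phf10, -0.0070 to 0.041 for Smarca4, -0.016 to 0.038 for Smarcal1, -0.0039 to 0.061 for Smarcb1, -0.018 to 0.025 for Smarcc2, -0.10 to 0.050 for Smarcd2, -0.043 to 0.12 for Srcap, -0.039 to 0.028 for Yy1, -0.14 to 0.075 for the ratio of Actl6b to Actl6a, -0.11 to 0.071 for the ratio of Dpf3 to Dpf2, -0.056 to 0.00056 for the ratio of Arid1b to Arid1a and -0.0045 to 0.075 for the ratio of Smarca1 to Smarca5. The cause was not tested.

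The standard errors limit which changes of the members could be seen, and the design cannot give a p under 0.0286 for a ratio. Overexpression libraries 2 and 3, without raised Ino80e, a trend with GC content that goes with the groups, and exon overlaps with other genes limit these values.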
